A study of Arabidopsis thaliana with 18 samples.

Results

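The cytosolic ribosomal protein genes of Arabidopsis thaliana described here are 60 of the 37686 genes in the deposited tables, taken from a list of gene identifiers and not by their measured values. They encode 26 proteins of the cytosolic ribosome, with 21 genes for 10 proteins of the small (40S) subunit and 39 genes for 16 proteins of the large (60S) subunit. Of these proteins, 13 are encoded by 2 of the genes, 9 by 3, 1 by 4 and 3 by 1, and genes for the same protein are called paralogs. Polyadenylated RNA came from wild-type Col-0 (Columbia) seedlings, of which the first 2 rosette leaves were taken, raised under constant light on 1/2 MS medium with sucrose. At each of 3 ages, 9, 12 and 15 days, 3 libraries were made from leaves that had been detached and cultured for 1 day on B5 medium without sucrose, and 3 from leaves before culture. This gives 6 groups, 18 libraries and n = 3 in every group. The series text speaks of biological duplicates, whereas 3 replicates per group were analysed here, so the tests compare groups with the spread among these libraries, part of which may be technical. Cultured leaves differ from the others in wounding, sugar supply, medium and 1 day of time, which cannot be told apart.

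The cytosolic ribosome is built from rRNAs and a large set of proteins, and in plants almost every one of these proteins has several closely related genes. Transcription of these genes is coordinated and is known to be high in growing and dividing cells. It is also known to follow sugar supply and the TOR kinase, which acts through S6 kinases on ribosomal protein S6. Leaves have a second set of ribosomes in their plastids, whose nuclear genes are treated apart. Gene symbols are those of the reference annotation, so RPS6 is the gene also called RPS6A, EMB3010 is RPS6B, RP1 is RPL3A, SAC52 is RPL10A, SAG24 is RPL10C, ATL5 is RPL5A, STV1 is RPL24B, PFL is RPS18A and P40 is RPSAa. RPL16A and RPL16B encode protein L11 in the nomenclature used here. Genes without a symbol are given by locus and protein.

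The 250 bases before each annotated gene start were read from the TAIR10.1 genome, because the genes moved together and paralogs differed in their upstream sequence. The motifs searched, on both strands and with overlapping matches counted, were the telo-box AAACCCTA and the site II element TGGGCC or TGGGCT, both known from plant genes of ribosome production. A site II element was present in 44 of the 60 windows (73.3%), against 19.2% of the windows of 27443 protein-coding genes. A telo-box was present in 13 (21.7%, against 4.49%), and both motifs were present in 10 (16.7%, against 1.36%). Site II elements were found before 32 of the 39 genes of the 60S subunit (82.1%) and 12 of the 21 genes of the 40S subunit (57.1%), and in the other order before 46 of 69 other cytosolic genes of the 60S (66.7%) and 41 of 59 of the 40S subunit (69.5%). The windows shown, chosen after the values were seen, are those of paralogs of S6 and P0, whose ratios moved most under culture at 15 days, of the L24 paralogs, which hold the motif in unequal numbers, of AT3G23390, which has both motifs, and of AT3G10090, whose level changed least with age before culture and which has neither. They run 5′ to 3′ toward the gene, with capitals marking matches to either motif.
RPS6 (S6, chr4:15347805-15348054, minus strand): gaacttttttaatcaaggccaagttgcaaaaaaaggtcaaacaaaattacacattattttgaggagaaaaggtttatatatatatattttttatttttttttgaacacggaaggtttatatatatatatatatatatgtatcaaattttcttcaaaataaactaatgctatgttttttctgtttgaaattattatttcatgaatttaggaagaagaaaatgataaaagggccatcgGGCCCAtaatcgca
EMB3010 (S6, chr5:3260255-3260504, minus strand): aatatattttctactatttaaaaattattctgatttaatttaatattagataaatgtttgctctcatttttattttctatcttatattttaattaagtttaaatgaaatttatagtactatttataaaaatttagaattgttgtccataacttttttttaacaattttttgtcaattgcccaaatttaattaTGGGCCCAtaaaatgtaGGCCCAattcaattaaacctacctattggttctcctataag
RPL24A (L24, chr2:15352014-15352263, minus strand): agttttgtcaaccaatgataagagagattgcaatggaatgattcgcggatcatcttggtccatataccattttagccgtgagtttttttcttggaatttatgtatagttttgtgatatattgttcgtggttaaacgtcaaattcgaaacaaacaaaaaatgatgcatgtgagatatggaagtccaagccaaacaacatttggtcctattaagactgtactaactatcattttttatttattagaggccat
STV1 (L24, chr3:19662026-19662275, minus strand): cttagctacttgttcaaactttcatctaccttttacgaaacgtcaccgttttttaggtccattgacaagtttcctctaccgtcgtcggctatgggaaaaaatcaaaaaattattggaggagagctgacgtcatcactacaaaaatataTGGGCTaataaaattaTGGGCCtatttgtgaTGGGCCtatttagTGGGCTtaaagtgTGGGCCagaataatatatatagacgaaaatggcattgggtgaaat
AT2G40010 (P0, chr2:16710773-16711022, minus strand): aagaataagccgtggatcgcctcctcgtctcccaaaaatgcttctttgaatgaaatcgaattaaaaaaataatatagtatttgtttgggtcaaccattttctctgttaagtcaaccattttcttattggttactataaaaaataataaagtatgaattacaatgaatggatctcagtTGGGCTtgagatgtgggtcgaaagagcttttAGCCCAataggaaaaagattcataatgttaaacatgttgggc
AT3G09200 (P0, chr3:2825242-2825491, minus strand): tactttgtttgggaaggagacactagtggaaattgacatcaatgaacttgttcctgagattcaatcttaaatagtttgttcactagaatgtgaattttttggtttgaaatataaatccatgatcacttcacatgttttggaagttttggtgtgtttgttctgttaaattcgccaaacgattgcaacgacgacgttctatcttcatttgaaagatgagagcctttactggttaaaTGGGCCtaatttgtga
AT3G23390 (L36a, chr3:8375083-8375332, plus strand): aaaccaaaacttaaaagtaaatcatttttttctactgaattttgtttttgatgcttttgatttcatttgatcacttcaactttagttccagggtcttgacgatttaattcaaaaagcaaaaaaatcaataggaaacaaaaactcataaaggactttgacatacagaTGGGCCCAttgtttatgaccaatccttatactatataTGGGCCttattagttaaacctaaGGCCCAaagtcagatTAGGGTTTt
AT3G10090 (S28, chr3:3110095-3110344, minus strand): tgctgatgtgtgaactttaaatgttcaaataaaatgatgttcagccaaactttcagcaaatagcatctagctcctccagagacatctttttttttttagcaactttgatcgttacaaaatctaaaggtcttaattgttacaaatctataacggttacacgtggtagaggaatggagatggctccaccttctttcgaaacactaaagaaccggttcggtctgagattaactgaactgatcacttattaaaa
RPS6 had 1 site II element, 14 bases before its start, and its paralog EMB3010 had 3. RPL24A had none, and its paralog STV1 had 5. AT2G40010 had 2 and its paralog AT3G09200 had 1. These matches describe the letters in each window and not the binding of any factor. The 44 genes with a site II element had a median log2 fold change of 1.45 under culture at 15 days, and the 16 without one had 1.53, with overlapping ranges.

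Library totals lay between 29664089 and 51126114 expected counts. All 60 genes passed the filter on low counts, and the lowest count of any of them in any library was 24. Their mean levels over the 18 libraries, in TPM, a level per transcript length that sums to the same total in every library, had a median of 221.5, with 48 genes at 100 TPM or more. The most abundant was ATL5 (L5) at 616 TPM, and the least abundant were RPSAb (Sa) at 6.81 TPM and AT2G40010 (P0) at 5.95 TPM. Log2 expression of all genes correlated between replicates at 0.906 to 0.986, lowest before culture at 15 days. Replicate 2 before culture stood apart from its group at 12 and at 15 days, and the replicates numbered 3, whose labels use other wording, deviated together. Results that rest on these libraries are given with and without them. The 5 leaf mesophyll markers were high in every library, with a summed level of 20333 to 22585 TPM in leaves cultured at 15 days and 27634 to 49168 TPM in 15-day leaves before culture. The meristem gene WUS and the root gene PLT1 were at 0 in all 18 libraries. The 4 shoot meristem and boundary markers summed to at most 0.46 TPM, reached before culture at 15 days. The 2 seed markers summed to at most 0.07 TPM in the 15-day groups and at most 0.55 TPM in any library, reached after culture at 9 days. The 6 root markers summed to 45.3 to 56.3 TPM in leaves cultured at 15 days and 1.52 to 4.99 TPM before culture, nearly all of it PYK10. In 9-day leaves they summed to 13.05 to 34.67 TPM after culture and 31.25 to 35.94 TPM before it. At 12 days they summed to 9.87 to 20.07 TPM after culture and 13.11 to 16.25 TPM before it. The part of these markers in the results below was not tested.

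**Figure D1:**
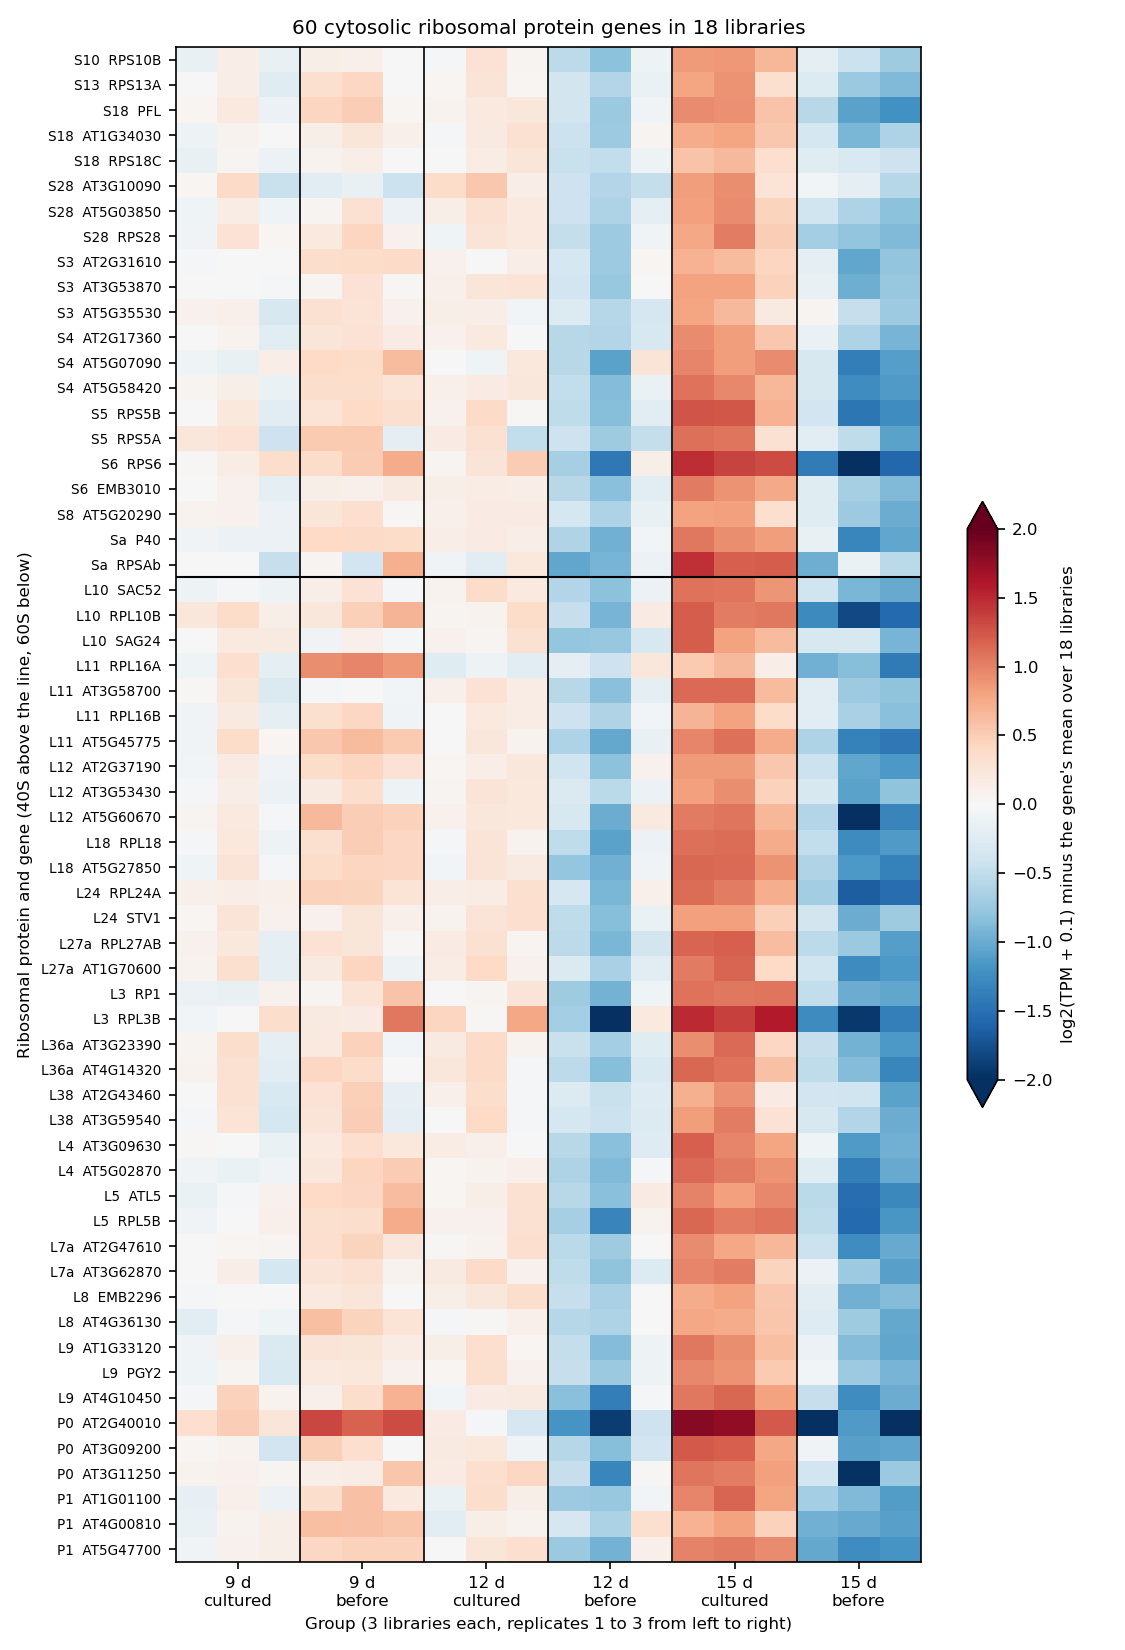
Levels of the 60 genes (rows) in the 18 libraries (columns), as log2(TPM + 0.1) minus the mean of each gene over all libraries, with colours clipped at -2 and 2. The 3 libraries of leaves cultured at 15 days hold the highest values of the plot, and the libraries before culture at 15 days most of the lowest.

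The ribosomal protein genes lost level with leaf age before culture, and 1 day of culture raised all of them in the oldest leaves. At 9 days the summed level of the 60 genes was 14035, 15436 and 13489 TPM after culture (replicates 1 to 3), against 17561, 18451 and 16970 TPM before it. At 12 days it was 14979, 16747 and 15920 TPM after culture, against 10021, 8137 and 13483 TPM before it. At 15 days it was 28778, 28332 and 23229 TPM after culture, against 11118, 7364 and 7018 TPM before it. Cultured leaves thus lay below uncultured ones at 9 days and above them at 12 and 15 days, without overlap at any age, and the cultured 15-day libraries had the highest sums of all 18. Of the 60 genes, 59 had their highest group mean in leaves cultured at 15 days, and 54 had their lowest in 15-day leaves before culture. In bulk leaves, fewer cells that use these genes and less of their RNA per cell cannot be told apart.

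Changes in single genes were tested on counts in a quasi-likelihood fit by edgeR, with p-values adjusted after Benjamini and Hochberg over 20952 genes and called at 0.05; fold changes are log2 with standard errors. Shares of all genes called belong to this fit. Counts of the 60 genes under alternatives are given without such a share, so a general change in calls cannot be told apart. Under culture at 9 days 3 of the 60 genes were called lower and 0 higher, while 3.72% of all genes were called lower and 5.82% higher. The median of the 60 was -0.45, 59 of 60 values were below 0, and 19 had an unadjusted p under 0.05, all lower, as had 10.9% of all genes. TPM after culture lay below all values before it for 31 genes, against 9.75% of all genes. RPL16A (L11) had 16.3, 21.9 and 15.2 TPM after culture, against 32.9, 34.1 and 31.4 TPM before it, a change of -1.05 ± 0.25 (adjusted p = 0.0156). AT4G36130, for L8 near the peptidyl transferase centre, changed by -0.73 ± 0.22 (adjusted p = 0.0467), and AT4G00810, for the stalk protein P1, by -0.73 ± 0.21 (adjusted p = 0.0419).

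The count at 9 days depended on single libraries. No call was left without cultured replicate 1 or 3, or replicate 1 or 2 before culture, at that age. A single call was left without cultured replicate 2 at 9 days, cultured replicate 3 or replicate 1 before culture at 12 days, or cultured replicate 1 at 15 days. There were 6 calls without replicate 3 before culture at 12 days or replicate 1 before culture at 15 days, and 5 without replicate 2 before culture at 15 days. With both libraries that stood apart left out 13 genes were called lower, with replicates 1 and 2 only 4 were, and DESeq2 called 7. Within replicate 3 the median difference in log2 TPM was -0.36.

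Under culture at 12 days no gene was called by edgeR in either direction, and none by DESeq2, while 10.4% of all genes were called higher and 9.33% lower. No member had an unadjusted p under 0.05, while 16.3% of all genes had one and were higher and 16% had one and were lower. The median was 0.27 and 58 of the 60 values were above 0, and TPM after culture lay above all values before it for 42 genes, against 34.9% of all genes. Replicate 3 before culture was the highest of its group, for RPS6 with 216, 127 and 369 TPM in replicates 1 to 3. Without that library 6 genes were called higher. With replicates 1 and 2 only 4 were, with a median of 0.48 in the fit. The median difference in log2 TPM, another scale, was 0.585, 1.01 and 0.26 within replicates 1, 2 and 3. In CPM, the scale of the fit, most of the 60 genes were lower after culture than before it within replicate 3.

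Under culture at 15 days all 60 genes rose, with a median of 1.49 (edgeR). Over all genes 21.1% were called higher and 20.8% lower, with a median of -0.07. TPM after culture lay above all values before it for each of the 60 genes, against 30.4% of all genes. The smallest rise was that of RPS18C (S18) at 0.65 ± 0.17 (adjusted p = 0.00788). The largest were those of AT2G40010 (P0) at 3.35 ± 0.46 (adjusted p = 7.1e-05), RPS6 at 2.86 ± 0.27 (adjusted p = 5.23e-06), RPL3B at 2.81 ± 0.41 (adjusted p = 0.000121) and RPL10B at 2.46 ± 0.22 (adjusted p = 3.62e-06). Without replicate 2 before culture at 15 days, one of the libraries that stood apart, the value of AT2G40010 was 4.16. With replicates 1 and 2 only 60 genes were called as well, and within replicate 3 the median difference in log2 TPM was 1.64, with all 60 higher. Fewer were called without cultured replicate 1 (58) or 2 (57), or replicate 1 (59) or 3 (56) before culture, at that age.

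The response at 15 days was higher than that at 9 days for 59 of the 60 genes, with a median difference of 1.93 between the log2 responses (edgeR). Over all genes 11% had a higher response and 9.77% a lower one. This contrast contains the response at 15 days, so the values are set side by side and not counted as separate evidence. It was 4.45 ± 0.62 for AT2G40010 (adjusted p = 0.000452), 3.37 ± 0.37 for RPS6 (adjusted p = 9.93e-05), 3.34 ± 0.56 for RPL3B (adjusted p = 0.00118) and 2.84 ± 0.30 for RPL10B (adjusted p = 9.59e-05). For AT2G40010 it was 5.26 without replicate 2 before culture at 15 days. The gene not called was AT3G10090 (S28), at 0.65 ± 0.38 (adjusted p = 0.241). Leaving out single libraries gave 56 to 59 calls.

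Before culture, 57 of the 60 genes were lower at 15 than at 9 days and 0 were higher, with a median of -1.12 (edgeR). Over all genes 22% were called lower and 23.2% higher, with a median of 0.07. TPM at 15 days lay below all values at 9 days for 58 genes, against 21.5% of all genes. The largest falls were those of AT2G40010 at -3.25 ± 0.46 (adjusted p = 6.44e-05), RPS6 at -2.27 ± 0.27 (adjusted p = 1.29e-05), RPL10B at -2.08 ± 0.22 (adjusted p = 4.73e-06) and RPL3B at -2.06 ± 0.40 (adjusted p = 0.000857). These are the same genes that led the response to culture at 15 days, and both comparisons share the 15-day libraries before culture. Without replicate 2 of these libraries the value of AT2G40010 was -4.06. The genes not called were SAG24 (L10) at -0.55 ± 0.22 (adjusted p = 0.0545), RPSAb (Sa) at -0.70 ± 0.30 (adjusted p = 0.0682) and AT3G10090 (S28) at -0.07 ± 0.27 (adjusted p = 0.863). With replicates 1 and 2 only 57 genes were called. The median difference in log2 TPM was -0.59 within replicate 1, -1.41 within replicate 2 and -1.18 within replicate 3, with 1, 1 and 0 genes higher. Replicate 1 before culture at 15 days had the highest summed level of its group.

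The 2 intervals were less clear. At 12 against 9 days 11 genes were called lower and 0 higher, with a median of -0.64 and all 60 values below 0 (edgeR; 4.02% of all genes were called lower and 3.42% higher). AT2G40010 led with -2.28 ± 0.44 (adjusted p = 0.00555), followed by AT5G45775 (L11) at -1.02 ± 0.24 (adjusted p = 0.0197), AT4G10450 (L9) at -0.96 ± 0.27 (adjusted p = 0.0409) and RPS6 at -0.95 ± 0.26 (adjusted p = 0.0344). Before culture, 1 gene was called without replicate 1 or 2 at 12 days or replicate 2 at 9 days, 2 without replicate 1 at 9 days and 23 without replicate 3 at 12 days. Calls numbered 7 when 1 of 6 cultured libraries was left out, namely replicate 1 at 9 days, any at 12 days, and replicate 1 or 2 at 15 days. The calls of AT4G10450 and RPS6 were also lost without replicate 3 at 9 days. With replicates 1 and 2 only 37 genes were called, with a median of -0.97, and without both libraries that stood apart 1 was. The median difference in log2 TPM, another scale, was -0.764, -1.16 and -0.29 within replicates 1, 2 and 3. In CPM, the scale of the fit, many of the 60 genes were higher at 12 than at 9 days within replicate 3, and others were lower.

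At 15 against 12 days before culture 9 genes were called lower and 0 higher, with a median of -0.47 (edgeR; 9.3% of all genes were called lower and 5.24% higher). Same-numbered samples deviated together in this comparison, though the labels state no pairing. With the replicate number as a block over all 6 groups, 15 were called lower. RPL10B led with -1.38 ± 0.21 (adjusted p = 0.000687), followed by RPS6 at -1.32 ± 0.26 (adjusted p = 0.00343), RPL16A at -1.12 ± 0.25 (adjusted p = 0.00877) and AT5G60670 (L12) at -1.10 ± 0.30 (adjusted p = 0.0222). The call of AT5G60670 was lost without replicate 1 or 3 at 12 days or replicate 2 or 3 at 15 days. There were 4 calls without replicate 3 at 12 days, 21 without replicate 2 at 12 days, 19 without replicate 1 at 15 days and 15 without both libraries that stood apart. A single gene was called with replicates 1 and 2 only, with a median of -0.19. In TPM the replicate numbers ran in different directions. The median difference in log2 TPM was 0.12 within replicate 1, with 44 of 60 genes higher. It was -0.17 within replicate 2, with 17 higher, and -0.90 within replicate 3, with 0 higher. In CPM, the scale of the fit, most of the 60 genes were lower at 15 days within replicate 1 too. The rise within replicate 1 thus depended on the scale.

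After culture the ages stood in the opposite order, with 41 genes higher at 15 than at 9 days and 0 lower, and a median of 0.76 with all 60 values above 0 (edgeR; 10.8% of all genes were called higher and 13.1% lower). TPM at 15 days lay above all values at 9 days for 57 genes, against 29.1% of all genes. RPSAb led with 1.35 ± 0.30 (adjusted p = 0.00494), followed by RPL3B at 1.28 ± 0.39 (adjusted p = 0.0273), AT2G40010 at 1.20 ± 0.42 (adjusted p = 0.0489) and RPS6 at 1.10 ± 0.26 (adjusted p = 0.00652). The call of RPL3B was lost without any 1 of the 6 libraries compared, and that of AT2G40010 without cultured replicate 1 or 2 at 15 days or any 1 library of 9 or 12 days other than replicates 2 and 3 before culture at 12 days. Of cultured libraries, 14 and 15 genes were called without replicates 1 and 2 at 15 days, and 19, 27 and 13 without replicates 1, 2 and 3 at 9 days. With replicates 1 and 2 only 49 were called, and within replicate 3 the median difference in log2 TPM was 0.75, with all 60 higher.

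**Figure D2:**
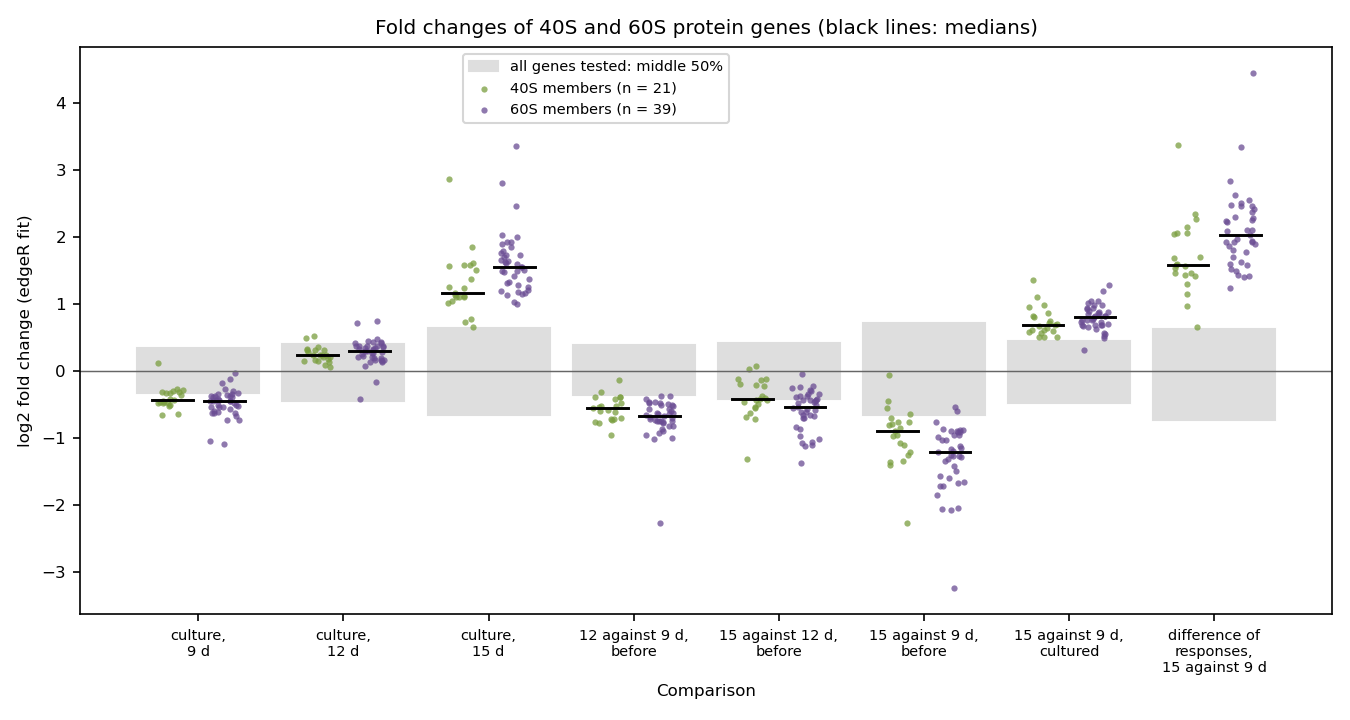
Log2 fold changes from the edgeR fit (vertical axis) of the 21 genes of the 40S and the 39 genes of the 60S subunit in 8 comparisons (horizontal axis); each point is 1 gene, black lines are medians and grey boxes span the middle 50% of all genes. All 60 points lie above 0 for culture at 15 days, and the 60S medians lie farther from 0 than the 40S medians in each comparison.

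The genes of both subunits rose under culture at 15 days and fell with age before culture, and the difference between the subunits was not tested. Under culture at 15 days all 39 genes of the 60S and all 21 of the 40S subunit rose, with medians of 1.55 and 1.16 (all genes: 21.1% called higher). At 15 against 9 days before culture 38 of 39 and 19 of 21 fell, with medians of -1.22 and -0.91 (all genes: 22% called lower). The summed TPM of the 60S genes over that of the 40S genes was 2.11, 2.15 and 2.13 in leaves cultured at 15 days, against 1.88, 1.82 and 1.83 in 15-day leaves before culture. It was 1.97, 2.06 and 2.03 in leaves cultured at 9 days, against 2.065, 2.103 and 2.089 before culture, and lay between 1.94 and 2.09 at 12 days. The 15-day libraries before culture had the lowest ratios of the 18 and those after culture lay at the upper end. The ratio describes the listed genes and not whole subunits. The other cytosolic genes had closer medians under culture at 15 days, 1.41 for 68 genes of the 60S and 1.37 for 59 genes of the 40S subunit. Their summed levels averaged 32101 TPM (60S) and 20647 TPM (40S) in leaves cultured at 15 days, against 10436 and 7259 TPM before culture. The 60S to 40S ratio of these means was thus also higher after culture.

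Among the 40S proteins, S6, the substrate of S6 kinase, had paralogs that responded unequally. RPS6 had 948, 877 and 844 TPM in leaves cultured at 15 days, against 129.9, 76.3 and 114 TPM in 15-day leaves before culture. EMB3010 had 762, 695 and 631 TPM after culture, against 314, 234 and 203 TPM before it. Neither gene's groups overlapped, and EMB3010 was the more abundant before culture while RPS6 was the more abundant after it. RPS6 rose by 2.86 ± 0.27 (adjusted p = 5.23e-06) and EMB3010 by 1.25 ± 0.19 (adjusted p = 0.000170). In 9-day leaves before culture the levels were 439.7, 485 and 574 TPM of RPS6 and 405, 401 and 423 TPM of EMB3010. From 9 to 15 days RPS6 fell by 2.27 ± 0.27 and EMB3010 by 0.76 ± 0.19 (adjusted p = 0.00479). RPS6 thereby supplied 29.98% ± 5.78 (SD) of S6 transcripts in 15-day leaves before culture, against 54.8% ± 2.76 in 9-day leaves before culture, and 56.2% ± 0.954 in leaves cultured at 15 days.

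S5 lies at the mRNA exit of the subunit, and the promoter of its gene RPS5A is widely used to mark dividing cells. RPS5A held 69.8% of S5 transcripts on average and was the more abundant paralog in all 18 libraries. It averaged 645 ± 182 TPM in leaves cultured at 15 days and 239.7 ± 68.1 TPM before culture (SD), with a rise of 1.23 ± 0.36 (adjusted p = 0.0126) that was not called without replicate 3 before culture at 15 days. RPS5B averaged 322 ± 66.0 TPM after culture and 78.7 ± 33.0 TPM before it and rose by 1.85 ± 0.27 (adjusted p = 0.000109). Of the Sa genes, P40 held 98.4% of the transcripts and rose by 1.51 ± 0.24 (adjusted p = 0.000262). The rare paralog RPSAb had 16.6, 13.7 and 13.9 TPM after culture, against 2.96, 5.42 and 4.06 TPM before it, and rose by 1.58 ± 0.30 (adjusted p = 0.000853).

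Loss of the S18 gene PFL or of the S13 gene RPS13A is known to give narrow, pointed first leaves. PFL averaged 298 ± 40.5 TPM in leaves cultured at 15 days and 89.2 ± 22.1 TPM before culture (SD), and rose by 1.56 ± 0.24 (adjusted p = 0.000183). Its paralog RPS18C, the most abundant S18 gene in 17 of 18 libraries, averaged 315 ± 34.6 TPM after culture and 176 ± 10.5 TPM before it. PFL supplied 33.4% ± 1.21 of S18 transcripts in leaves cultured at 15 days and 23.4% ± 2.76 before culture. RPS13A averaged 328 ± 65.3 TPM after culture and 133 ± 30.3 TPM before it and rose by 1.12 ± 0.24 (adjusted p = 0.00205). The other 40S genes with no paralog among the 60, RPS10B (S10) and AT5G20290 (S8), rose by 1.02 and 1.10.

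The S3 genes, whose protein lies at the mRNA entry, rose by 0.72 (AT5G35530), 1.04 (AT2G31610) and 1.11 (AT3G53870) under culture at 15 days. The S4 genes rose by 1.10 (AT2G17360), 1.58 (AT5G58420) and 1.61 (AT5G07090). AT3G10090, for the small protein S28, changed least with age before culture. It had 128, 136 and 86.4 TPM in leaves cultured at 15 days, against 69.0, 63 and 48.1 TPM before culture, a rise of 0.77 ± 0.27 (adjusted p = 0.0339). In 9-day leaves before culture it had 61.7, 64.4 and 53.1 TPM, which overlapped the 15-day values. Its paralogs AT5G03850 and RPS28 rose by 1.16 ± 0.22 (adjusted p = 0.000775) and 1.37 ± 0.22 (adjusted p = 0.000266), and neither motif was found before any of the 3 genes.

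**Figure D3:**
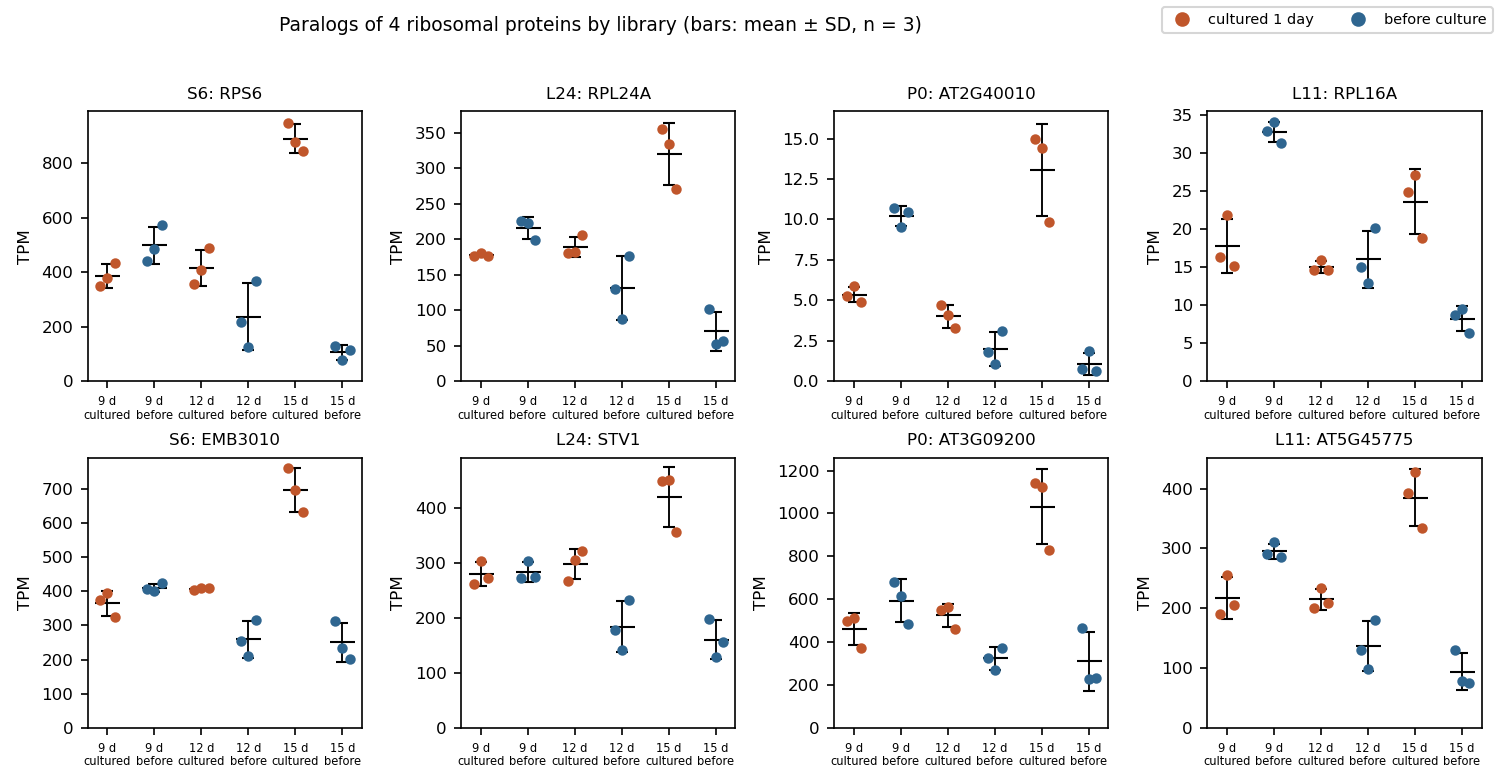
TPM (vertical axes, from 0) of paralogs in the 6 groups; points are libraries and bars are mean ± SD. In 15-day leaves RPS6 averaged 889 TPM after culture and 107 TPM before it, and EMB3010 696 and 250.2 TPM.

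Among the 60S proteins, L24 joins the subunit late, and its gene STV1 is known to be needed to restart translation after short upstream reading frames. RPL24A had 355, 334 and 270.3 TPM in leaves cultured at 15 days, against 101, 52.3 and 56.9 TPM in 15-day leaves before culture. STV1 had 449, 451 and 356 TPM after culture, against 197, 128 and 155 TPM before it. Both rose without overlap, RPL24A by 2.02 ± 0.26 (adjusted p = 4.43e-05) and STV1 by 1.21 ± 0.20 (adjusted p = 0.000275). From 9 to 15 days before culture RPL24A fell by 1.72 ± 0.26 (adjusted p = 0.000105) and STV1 by 0.90 ± 0.20 (adjusted p = 0.00192). RPL24A supplied 29.9% ± 3.65 (SD) of L24 transcripts in 15-day leaves before culture, against 43.3% ± 1.87 in 9-day leaves before culture, and 43.3% ± 0.802 in leaves cultured at 15 days.

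L10 is added at the end of 60S maturation in yeast, and its genes differ widely in level, with SAC52 at 74.7%, SAG24 at 22.7% and RPL10B at 2.68% of L10 transcripts on average. RPL10B had 39.2, 34.3 and 35 TPM in leaves cultured at 15 days, against 6.91, 4.75 and 5.71 TPM in 15-day leaves before culture. SAC52 averaged 989 ± 78.1 TPM after culture and 291 ± 69.6 TPM before it (SD) and rose by 1.55 ± 0.22 (adjusted p = 9.65e-05). SAG24, named for its expression in senescing leaves, averaged 275 ± 59.6 TPM after culture and 104 ± 23.3 TPM before it and rose by 1.19 ± 0.22 (adjusted p = 0.000723). The least abundant of the 3 thus had the largest rise, 2.46, and also the largest fall from 9 to 15 days before culture.

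L3 and L8 lie near the peptidyl transferase centre and L4 at the exit tunnel. RP1 held 94.2% of the L3 transcripts and had 1049, 1027 and 1045 TPM in leaves cultured at 15 days, against 352, 249 and 240.4 TPM before culture. Its rare paralog RPL3B had 81.3, 75.1 and 87.2 TPM after culture, against 12, 7.56 and 11.1 TPM before it. RP1 rose by 1.70 ± 0.19 (adjusted p = 1.3e-05), beside 2.81 for RPL3B. Of the L4 genes, AT3G09630 rose by 1.48 ± 0.23 (adjusted p = 0.000188) and AT5G02870 by 1.65 ± 0.23 (adjusted p = 7.01e-05). Of the L8 genes EMB2296 held 76.2% of the transcripts and rose by 1.16 ± 0.21 (adjusted p = 0.000541), and AT4G36130 rose by 1.13 ± 0.22 (adjusted p = 0.000965).

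L5 and L11 bind the 5S rRNA. ATL5 (L5) had 1105, 978 and 1080 TPM in leaves cultured at 15 days, against 379.7, 194 and 227 TPM before culture, a rise of 1.78 ± 0.22 (adjusted p = 3.75e-05). RPL5B averaged 850.2 ± 38.4 TPM after culture and 199 ± 74.7 TPM before it (SD) and rose by 1.92 ± 0.26 (adjusted p = 6.68e-05). The 4 L11 genes moved apart. RPL16A, the least abundant, was the 1 member whose highest group was 9-day leaves before culture, at 32.8 ± 1.34 TPM, and it averaged 23.6 ± 4.27 TPM in leaves cultured at 15 days and 8.22 ± 1.63 TPM before culture. AT5G45775 averaged 385 ± 48.0 TPM after culture and 94.0 ± 31.4 TPM before it and rose by 1.85 ± 0.25 (adjusted p = 6.19e-05). AT3G58700 rose by 1.36 ± 0.23 (adjusted p = 0.000330) and RPL16B by 1.00 ± 0.24 (adjusted p = 0.00388). RPL16A and AT3G58700 share 12.8% of their stretches of 50 coding bases, so a few of their reads could be split wrongly.

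The stalk, which recruits translation factors, is formed by P0, P1 and L12 with others. AT2G40010 (P0) had 15, 14.4 and 9.82 TPM in leaves cultured at 15 days, against 0.740, 1.84 and 0.630 TPM before culture. AT3G09200, which held 94.1% of the P0 transcripts, had 1144, 1123 and 830.3 TPM after culture, against 467, 229 and 235 TPM before it. The rare gene thus had the largest fold change of the 60 and the abundant one a rise of 1.55 ± 0.29 (adjusted p = 0.000751). AT2G40010 overlaps the long non-coding RNA gene AT2G40008 on the opposite strand over 1185 bases, and strand use in counting is not stated, so its counts may include reads of that gene. In all, 15 of the 60 genes overlap another annotated gene, 11 of them on the opposite strand. The P1 genes AT1G01100, AT5G47700 and AT4G00810 rose by 1.64, 1.93 and 1.49. AT5G60670, the least abundant L12 gene, rose by 1.99 ± 0.30 (adjusted p = 0.000161), beside 1.28 for the most abundant, AT3G53430.

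The remaining 60S families are L18, L27a, L36a, L7a, L38 and L9. The L18 genes RPL18 and AT5G27850 rose by 1.76 and 1.90, and the L27a genes RPL27AB and AT1G70600 by 1.60 and 1.61. The L36a genes AT4G14320 and AT3G23390 rose by 1.63 and 1.5, with 73.1% of the transcripts from the first. The L7a genes AT3G62870 and AT2G47610 rose by 1.25 and 1.48, and the L38 genes AT2G43460 and AT3G59540 by 1.02 and 1.17. The L9 genes PGY2 and AT1G33120 rose by 1.15 and 1.31, but their coding sequences are 99.1% identical and share 76.3% of their stretches of 50 bases, so the split of reads between them is uncertain. PGY2 is known from a mutant that alters leaf shape. AT4G10450, with 5.11% of the L9 transcripts, rose by 1.73 ± 0.27 (adjusted p = 0.000203).

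Whether culture shifted the balance of paralogs, on average over the 3 ages, was tested on the log2 ratio of TPM + 0.1 in each library, with an exact two-sided permutation test within ages (8000 arrangements, smallest possible p of 0.00025) and Benjamini-Hochberg adjustment over 46 pairs. The mean change over the 3 ages passed the test for 6 pairs, of P1, L11 and S3. Both P1 pairs hold AT4G00810, and each L11 pair shares RPL16A or AT3G58700 with another, so the calls are not separate results. AT4G00810 fell relative to AT5G47700, both for P1, by 0.38 (adjusted p = 0.00575). Their log2 ratio was -0.17, -0.08 and -0.21 in leaves cultured at 12 days, against 0.46, 0.37 and 0.27 before culture, and -0.25, -0.18 and -0.44 in leaves cultured at 15 days, against 0.11, 0.27 and 0.14 before culture. AT1G01100, the main P1 gene, rose relative to AT4G00810 by 0.25 (adjusted p = 0.0268), with overlapping groups at 9 days. Of the L11 genes, RPL16A fell relative to AT5G45775 by 0.59 (adjusted p = 0.00575), with -0.44, -0.76 and -0.56 at 9, 12 and 15 days and no overlap at any age. Relative to AT3G58700 it fell by 0.57 over the 3 ages (adjusted p = 0.0230), with -0.91, -0.78 and -0.03 at 9, 12 and 15 days, and the groups overlapped at 15 days. AT3G58700 rose relative to RPL16B by 0.28 (adjusted p = 0.00767), with 0.26, 0.24 and 0.35 at the 3 ages and overlap at 9 days. For S3, AT2G31610 fell relative to AT3G53870 by 0.16 (adjusted p = 0.00863), with -0.24, -0.18 and -0.06 at the 3 ages and overlap at 15 days.

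Of these calls, 3 were left without both libraries that stood apart and 0 with replicates 1 and 2 only, where far fewer arrangements exist. The S3 call was lost without any 1 of the cultured 9-day libraries. That of AT1G01100 over AT4G00810 was lost without cultured replicate 1 or 2 or replicate 1 before culture at 9 days, or cultured replicate 2 at 12 days. The calls for AT4G00810 over AT5G47700 and RPL16A over AT5G45775 remained without any 1 library. With the replicate number as a block, the calls for RPL16A over AT3G58700 (adjusted p = 0.0980) and AT3G58700 over RPL16B (adjusted p = 0.0719) were lost in the exact test.

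The S6, L24 and L10 pairs described next were not among the 6, and their ratios moved in opposite directions at 9 and 15 days. They were chosen after their values were seen, and with 3 libraries against 3 the smallest exact two-sided p is 0.1, so they are described without a test. The log2 ratio of RPS6 to EMB3010 was 0.32, 0.33 and 0.42 in leaves cultured at 15 days, against -1.27, -1.62 and -0.82 before culture. The mean difference was -0.19 at 9 days, 0.26 at 12 days and 1.59 at 15 days, and over the 3 ages the change was not called (adjusted p = 0.146, exact permutation test). For RPL24A to STV1 the mean differences at the 3 ages were -0.26, -0.14 and 0.85, and for RPL10B to SAG24 -0.36, -0.20 and 1.23. In each of these pairs the 15-day libraries before culture had the lowest ratios of all 18. The mean difference in the log2 ratio at 15 against 9 days before culture was -1.51 for S6, -0.85 for L24 and -1.49 for L10.

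**Figure D4:**
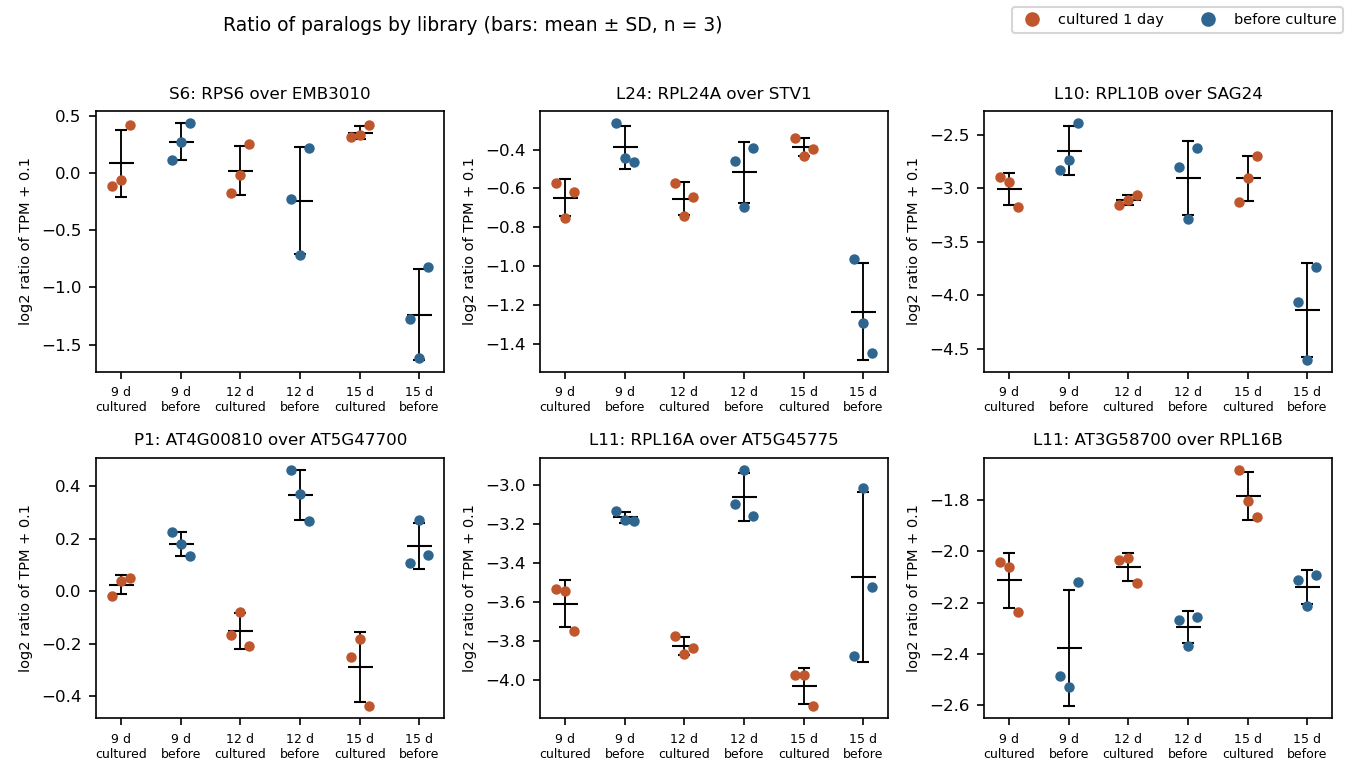
Log2 ratio of TPM + 0.1 of paralogs (vertical axes) in the 6 groups; points are libraries and bars are mean ± SD. For RPS6 over EMB3010 the 15-day libraries before culture stand below all others, and for AT4G00810 over AT5G47700 the cultured mean is the lower one at each age.

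Genes of related roles were counted in lists of their own. Of the other cytosolic ribosomal protein genes, 59 of 59 for the 40S and 66 of 68 tested for the 60S subunit rose under culture at 15 days, and 56 and 61 fell from 9 to 15 days before culture; of all genes 21.1% were called higher in the first comparison and 22% lower in the second. The 30 nuclear genes for plastid ribosomal proteins also fell with age before culture, 30 of 30 with a median of -1.38. In culture they were called lower, 23 of 30 at 9 days, 30 at 12 days and 12 at 15 days, and 0 were higher, with medians of -0.80, -1.06 and -0.38; of all genes 3.72%, 9.33% and 20.8% were called lower. After culture 28 of 30 were lower at 15 than at 9 days, where 41 of the 60 cytosolic genes were higher and 0 lower and, of all genes, 13.1% were called lower and 10.8% higher.

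Of 9 genes for ribosome assembly in the nucleolus, 8 rose under culture at 15 days (median 1.39), where 21.1% of all genes were called higher. Before culture 2 fell and 1 rose from 9 to 15 days, where 22% of all genes were called lower and 23.2% higher. FIB2, a fibrillarin of the rRNA methylation machinery named after its values were seen, rose by 3.59 ± 0.55 (adjusted p = 0.000161). Of 8 genes for the TOR and SnRK1 kinases and their partners, 0 rose and 2 fell under culture at 15 days, a share near the 20.8% of all genes called lower. Those that fell were LST8-1, a TOR partner, at -0.55 ± 0.18 (adjusted p = 0.0211) and KIN11, a SnRK1 subunit, at -0.47 ± 0.12 (adjusted p = 0.00512). From 9 to 15 days before culture 4 rose, where 23.2% of all genes were called higher, namely the S6 kinase genes S6K2 at 2.66 ± 0.55 (adjusted p = 0.00142) and PK1 at 0.75 ± 0.21 (adjusted p = 0.0103), and KIN10 and KIN11 at 0.39 and 0.43. All 14 mitotic genes, among them B-type cyclins and CDKs, rose under culture at 15 days (median 2.23) and fell from 9 to 15 days before culture (median -4.34). After culture 13 of the 14 were lower at 15 than at 9 days (median -1.39; 13.1% of all genes), unlike the ribosomal protein genes, and the part of dividing cells in the ribosomal results was not tested.

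**Figure D5:**
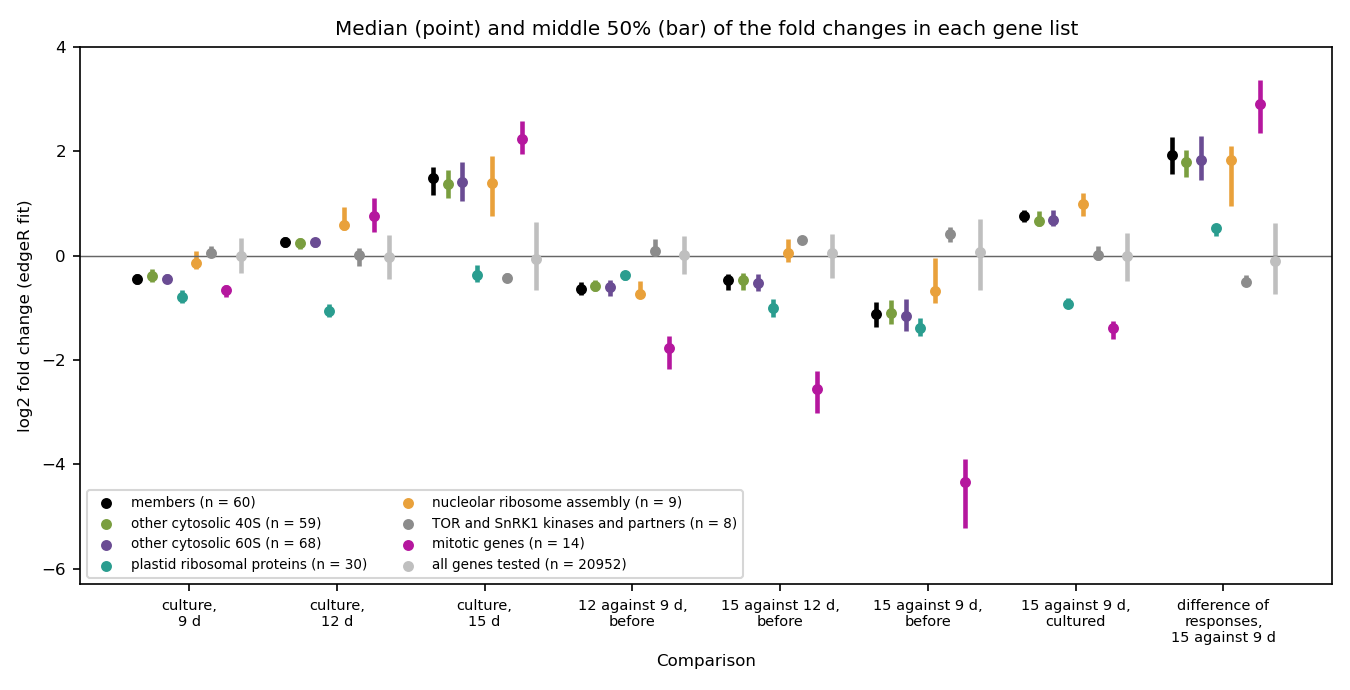
Log2 fold changes from the edgeR fit in the gene lists and in all genes tested, for the 8 comparisons (horizontal axis), with medians as points and the middle 50% as bars. For culture at 15 days the 60 genes, the other 40S and the other 60S genes have medians of 1.49, 1.37 and 1.41, and the plastid list has -0.38.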

How the data were processed

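The deposited tables give, for 1 library each, expected counts, TPM and FPKM per gene, per the file headers. Trimmomatic, STAR 2.5.3, RSEM 1.3.0 and the TAIR10 genome are named in the submitters' processing notes, and the annotation version and strand setting are not given in the sources used here. The authors' expected counts are estimated reads per gene, not scaled to depth, and were rounded to whole numbers. The deposited TPM values were used for levels and ratios, and the deposited FPKM values were not used. Gene lengths were the same within 0.5 nt as those of the TAIR10.1 annotation for 16593 of 16748 genes with a single transcript (99.07%), and names, starts and sequences came from that reference.

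Counts were tested with edgeR 4.0.16 in R 4.3.3: TMM factors, filterByExpr with a minimum count of 10, 1 mean for each of the 6 groups, the quasi-likelihood test, and Benjamini-Hochberg adjustment within each of 8 contrasts over 20952 genes. The procedure was tested on simulated data. Paralog ratios used log2(TPM + 0.1), which understates changes of low genes, and exact permutation within ages. DESeq2 1.42.0, RLE factors, other filters, a replicate block, a batch term for replicate 3 and leaving out each library were alternatives. Analysis of replicates 1 and 2 only was added after seeing the data. Depth was 29664089 to 51126114 expected counts per library.

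Same-numbered samples deviated together, with every correlation of their deviations over 0.1, in the comparisons of culture at 9 days (0.283, 0.233 and 0.409) and of 15 against 12 days before culture (0.340, 0.683 and 0.255). The labels do not state a pairing.

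The 60 genes were set by identifier and not by their measured values. This list, the other lists, the rule for genes given in full and the motifs were chosen with earlier results of these data known. Statistics are given in full for the 4 genes with the largest called change in each direction of a comparison (mean of at least 5 TPM), for members of called paralog pairs, for the most and least abundant genes of families (for several families the fold change alone) and for 15 genes of S5, S6, S13, S18, L4, L5, L10 and L24.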

Additional observations from a re-analysis of the deposited data

Results flagged for a closer look

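The response to culture differed between 15-day and 9-day leaves for 59 of the 60 ribosomal protein genes, by the edgeR test of the difference itself, with the 15-day response the higher one in each of these. Among the genes given in full, the difference on the log2 scale was 4.45 for AT2G40010 (P0), or 5.26 without replicate 2 before culture at 15 days. It was 3.37 for RPS6 (S6), 3.34 for RPL3B (L3) and 2.84 for RPL10B (L10). The value of AT2G40010 rests on low levels before culture at 15 days, 0.74, 1.84 and 0.63 TPM. Its counts may also include reads of the overlapping gene AT2G40008. Groups of 3 libraries are too small for a test of single outlying libraries, and none was made.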

How the results depend on the processing

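No count or median reversed, and no called gene or pair changed sign, under any alternative. Of 3712 values of single genes or pairs under alternatives, 3449 kept their direction and side of the threshold, 175 lost the call, 76 gained one and 12 changed sign, all of them values not called either way. Without both libraries that stood apart, culture at 12 days gave -0.0061 for RPL24A and -0.030 for RPL10B. With replicates 1 and 2 only, 15 against 12 days before culture gave 0.052 for EMB3010, 0.014 for RPS5A and 0.28 for SAG24. Without single libraries the range was -0.17 to 0.056 for SAG24 under culture at 9 days, -0.0061 to 0.42 for RPL24A and -0.029 to 0.48 for RPL10B under culture at 12 days, and -0.33 to 0.030 for RPS5A and -0.25 to 0.16 for SAG24 at 15 against 12 days before culture. Of 208 medians, 205 moved by less than the spread between replicates. Many alternatives leave out a library outside the comparison, which can hardly move its fold changes. Part of these unmoved medians, and of the unchanged values above, was thus nearly fixed in advance. The 3 other medians, all with replicates 1 and 2 only, were 0.48 for culture at 12 days, -0.97 for 12 against 9 days before culture and -0.19 for 15 against 12 days before culture. The cause of these changes was not tested.

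Under culture at 9 days 3 genes were called lower, and 1 without a filter on low counts, 13 without both libraries that stood apart, 7 by DESeq2 and 0 to 6 when single libraries were left out. Under culture at 12 days 0 were called higher, and 1 with a batch term for replicate 3, 4 with replicates 1 and 2 only and 0 to 6 without single libraries. At 12 against 9 days before culture 11 were called lower, and 22 with the batch term, 1 without both libraries, 37 with replicates 1 and 2 only, 22 by DESeq2 and 1 to 23 without single libraries. At 15 against 12 days before culture 9 were called lower, and 16 with the batch term, 15 without both libraries, 1 with replicates 1 and 2 only and 4 to 21 without single libraries. At 15 against 9 days after culture 41 were called higher, and 13 to 47 without single libraries. Leaving out single libraries gave 56 to 60 calls for culture at 15 days, 48 to 58 for 15 against 9 days before culture and 56 to 59 for the difference of responses. Of the 46 paralog ratios 6 were called, and 3 without both libraries, 0 with replicates 1 and 2 only and 4 to 9 without single libraries. With replicates 1 and 2 only far fewer arrangements exist, so a call is hard to reach there.

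With the replicate block 24 genes were called for 12 against 9 days, 15 for 15 against 12 days and 58 for 15 against 9 days, all before culture. It gave 3, 1 and 60 calls for culture at 9, 12 and 15 days, 53 for 15 against 9 days after culture, 60 for the difference of responses and 4 paralog pairs, without the pairs of RPL16A and AT3G58700 and of AT3G58700 and RPL16B.

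The counts of calls at 9 and 12 days changed with single libraries while their medians kept their sign. Counts of calls over all genes under the alternatives are not given, so changes particular to these genes cannot be told from general ones. Depth limits only the rare members, since the lowest count of any of the 60 genes was 24. TPM are shares of each library, so they show levels relative to other transcripts and not amounts per cell.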
